A study of Homo sapiens with 12 samples.

Results

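The 10 genes described here encode immune checkpoint ligands of tumor cells, and their RNA was measured by RNA sequencing in 2 renal carcinoma cell lines after knockdown of NUF2. They were taken by name, CD274, PDCD1LG2, CD276, VTCN1, LGALS9, PVR, NECTIN2, CD47, TNFRSF14 and CD70, and all 10 were found among the 58302 genes listed. The 12 libraries are from 769-P and ACHN cells, both labelled as clear cell renal cell carcinoma cells, and each line was transfected for 48 h with siRNA-NUF2 or with siRNA-control, which gives 4 groups of 3 libraries. The study's supplement says that 2 siRNAs against NUF2 would be mixed for its later experiments. Its methods do not say whether the sequenced cells received this mix. By the methods, 769-P cells were kept in RPMI-1640 medium and ACHN cells in Eagle's MEM. The line and its medium therefore cannot be told apart, and neither can the line and any batch it was handled in. The labels do not say whether the 3 libraries of a group are separate cultures, and p-values therefore measure only the spread between these samples.

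Checkpoint ligands are surface or secreted proteins through which a tumor cell turns the activity of T cells, NK cells or macrophages down or up. PD-L1 (CD274) and PD-L2 (PDCD1LG2) bind PD-1 on T cells, CD47 binds SIRPA on macrophages, and PVR and NECTIN2 bind the inhibitory receptor TIGIT and the activating receptor CD226. CD70 binds CD27 on lymphocytes and is known for its high level in clear cell renal cell carcinoma, where PD-1 blockade is in clinical use. Interferons induce CD274 through JAK and STAT factors and the transcription factor IRF1.

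The values are FPKM, fragments scaled to exon length and to the depth of the library, which allow levels of different genes to be set side by side. Reads recovered from the FPKM gave 29151084 to 38707443 reads per library. NUF2 (ENSG00000143228), the targeted gene and a subunit of the NDC80 complex of the kinetochore, checked the labels. In 769-P cells NUF2 was 4.17, 3.86 and 3.01 FPKM with siRNA-NUF2 and 19.4, 17.8 and 17.8 FPKM with siRNA-control, and in ACHN cells 2.16, 5.14 and 4.25 FPKM against 11.6, 15.0 and 14.8 FPKM. The groups did not overlap in either line, and the means with siRNA-NUF2 were 20.1% and 27.9% of those with siRNA-control (exact permutation test, two-sided, p = 0.1 in each line, the smallest that 3 against 3 can give). By limma NUF2 was called in 769-P cells in both fits (-2.28, adjusted p = 0.00145, and 0.00252 with the replicate number as block), and in ACHN cells with the block (-1.88, adjusted p = 0.0127) and not without it (adjusted p = 0.231). Libraries of 1 group differed more in ACHN than in 769-P cells. In ACHN cells the SD of log2 values had a median over genes of 0.214 and 0.221 in the siRNA-NUF2 and control groups, against 0.134 and 0.144 for 769-P. Libraries with the same replicate number deviated together in each line. The 2 ACHN libraries numbered 2 stood farthest from the other libraries of their groups.

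Renal markers here are 14 listed genes of renal epithelium or of clear cell renal cell carcinoma. Among them PAX8, KRT8, KRT18 and VIM were each at 35.8 FPKM or more in every library, and 11 of the 14 reached 0.5 FPKM in each group. CA9, a defining marker of clear cell renal cell carcinoma, was at most 0.0389 FPKM in 769-P and 0.121 FPKM in ACHN cells, and EGLN3 was at most 0.294 FPKM, so both were near absent, and NDUFA4L2 was at most 0.0496 FPKM in 769-P and 1.07 to 4.08 FPKM in ACHN cells. The 14 markers of blood and immune cells summed to 0.486 to 1.51 FPKM per library, with CD3E and HBB at 0 in all 12 and PTPRC at most 0.0258 FPKM. ITGAM, at up to 1.10 FPKM in ACHN cells, was the highest of them. The 8 endothelial and fibroblast markers summed to 0.115 to 0.267 FPKM in 769-P and 1.48 to 6.23 FPKM in ACHN cells, where COL1A1 and PDGFRB made up most of the sum. Ligand RNA was thus measured in cultures with almost no immune cell RNA, and since these are bulk samples, fewer cells with a transcript and less transcript per cell cannot be told apart.

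CD274 and PDCD1LG2 are neighbours on the forward strand of chromosome 9 (GRCh38, 5450503 to 5470566 and 5510570 to 5571254), with 40003 bases between them. Promoter windows of 300 bases, from 250 before to 50 after the RefSeq start on GRCh38.p14, were at hand for 8 of the 10 ligands, not for CD70 or PDCD1LG2, with 2 windows for CD276. Each was searched on both strands for TTTC, any 2 bases and TTTC, the type of the interferon-stimulated response element (ISRE), for TTC, any 3 bases and GAA, the type of the STAT-bound GAS element, for GGG, any 2 bases and TTTCC, of the NF-kB type, and for ACGTG, the core of the hypoxia response element. The interferon words were in the windows of CD274 and LGALS9 and of no other ligand searched, and these windows are shown because interferon-stimulated genes are compared with the ligands further on. Capitals mark the 2 ISRE-type words of CD274, which share 4 bases and begin at -208 and -202 from the start, its GAS-type word at -125, and the ISRE-type word of LGALS9 at -9. CD274 is at chr9:5450292-5450591 and LGALS9 at chr17:27630938-27631237, both on the forward strand.
CD274: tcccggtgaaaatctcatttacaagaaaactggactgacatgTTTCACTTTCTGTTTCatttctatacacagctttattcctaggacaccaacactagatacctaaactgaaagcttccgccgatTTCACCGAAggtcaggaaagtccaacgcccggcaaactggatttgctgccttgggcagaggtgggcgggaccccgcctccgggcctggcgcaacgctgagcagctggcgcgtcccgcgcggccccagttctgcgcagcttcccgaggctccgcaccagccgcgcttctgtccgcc
LGALS9: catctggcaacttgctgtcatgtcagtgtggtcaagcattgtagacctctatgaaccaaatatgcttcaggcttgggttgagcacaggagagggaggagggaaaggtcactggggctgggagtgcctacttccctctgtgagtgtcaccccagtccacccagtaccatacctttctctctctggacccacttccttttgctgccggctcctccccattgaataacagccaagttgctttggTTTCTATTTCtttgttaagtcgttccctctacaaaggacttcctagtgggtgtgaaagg
Of all 35116 promoter windows of this length, 3.574% held the first word, 7.657% the second, 1.911% the third and 21.409% ACGTG. No ligand window held the third, and ACGTG was in the windows of CD47 and of CD276, in 1 of its 2.

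Under siRNA-control, the ligands ranged from listed at 0 to 63.5 FPKM, and the order was led in both lines by CD70, NECTIN2, PVR and CD276. In 769-P cells the mean was 47.7 ± 4.06 FPKM (SD, n = 3) for CD70, 33.5 ± 3.39 for CD276 (B7-H3, a B7 family member whose receptor is not settled), 32.7 ± 4.36 for PVR, 30.3 ± 3.18 for NECTIN2, 6.28 ± 0.537 for CD47 and 0.434 ± 0.0612 for CD274. The ranges of CD276, PVR and NECTIN2 overlapped, and CD70, CD47 and CD274 each stood apart from their neighbours in the order. Next came LGALS9, galectin-9, a lectin that binds TIM-3 (HAVCR2), at 0.197 ± 0.0973 FPKM, and the 3 ligands PDCD1LG2, TNFRSF14 and VTCN1 (B7-H4) had at most 3 reads in any control library of 769-P.

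In ACHN cells the control means were 46.8 ± 16.6 FPKM (SD, n = 3) for CD70, 36.1 ± 2.41 for NECTIN2, 34.3 ± 6.60 for PVR, 18.8 ± 7.74 for CD276 and 9.54 ± 3.49 for CD47. PDCD1LG2 at 5.23 ± 4.13, TNFRSF14 at 3.98 ± 0.700 and CD274 at 2.40 ± 1.15 FPKM followed, and LGALS9 and VTCN1 were at 0.0756 and 0.0148 FPKM. CD70, NECTIN2 and PVR overlapped in range, as did CD47 with PDCD1LG2, PDCD1LG2 with TNFRSF14 and TNFRSF14 with CD274. Levels in ACHN cells differed by replicate number. PDCD1LG2 spanned 6.84 times from its lowest to its highest control library, CD274 2.99 times, CD276 2.20 times, CD47 2.18 times and CD70 2.09 times, against 1.13 times for NECTIN2. For each of these 6 genes, control library 2 was the lowest.

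Between the lines under siRNA-control, ACHN cells carried more PDCD1LG2, TNFRSF14 and CD274 RNA and less CD276 RNA than 769-P cells. Of the 8 ligands tested, 3 were higher and 1 lower at an adjusted p of 0.05 (limma on log2(FPKM + 0.1), Benjamini-Hochberg over 15378 genes), against 29.8% of all genes higher, 31.7% lower and 61.4% in either direction, so passing was usual in this comparison. All 4 also had groups that did not overlap, against 32.9% of genes higher and 35.4% lower in ACHN cells without overlap. TNFRSF14 (HVEM, the ligand of BTLA and CD160) and PDCD1LG2 passed the filter, 0.5 FPKM in at least 3 libraries, only through ACHN cells, so that they had to differ. CD274 also needed the ACHN libraries to pass, since among the control libraries of 769-P only library 3 reached 0.5 FPKM, at 0.504. Its call is therefore tied in part to the filter.

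PDCD1LG2 was 4.67, 1.40 and 9.60 FPKM in the ACHN control libraries 1 to 3, and 0.0287, 0 and 0 FPKM in those of 769-P. These values stand for 1274 reads against 2 reads, a ratio of 569 per fragment sequenced with an exact counting interval of 157 to 4704 (95%), which covers counting error only. With siRNA-NUF2 the 769-P libraries had 0 reads, which with a floor of 3 reads over the group allows up to 0.0140 FPKM. The ratio of ACHN to that floor was 185, and the exact counting interval of the ratio began at 150.3. TNFRSF14 had 2581 reads in ACHN and 5 in 769-P control libraries, a ratio of 461 with an interval of 197 to 1422, and its FPKM in ACHN ran from 3.22 to 4.60. The antisense gene TNFRSF14-AS1 shares 13.36% of the exon length of TNFRSF14 and reached at most 0.13 FPKM. The fitted log2 differences of 5.23 (SE 0.633, adjusted p = 0.00047) and 5.21 (SE 0.205, adjusted p = 4.56e-06) depend on the pseudocount and are no measure of the fold.

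CD274 was 2.80, 1.11 and 3.31 FPKM in ACHN and 0.388, 0.410 and 0.504 FPKM in 769-P control libraries, so the lowest ACHN library was above every 769-P library. The fitted difference was 2.08 on the log2 scale (SE 0.393, 95% interval 1.15 to 3.02, adjusted p = 0.00349). It was 2.55 without ACHN control library 2, and between 1.80 and 2.55 with any 1 library left out, with an adjusted p of 0.015 at most. CD276 was lower in ACHN cells, at 27.4, 12.4 and 16.5 FPKM against 35.8, 35.1 and 29.7 FPKM, a log2 difference of -0.93 (SE 0.275, adjusted p = 0.0229). The call of CD276 was lost, with adjusted p = 0.0646, 0.063 and 0.0718, without 769-P library 1, 769-P library 2 or ACHN library 3.

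The other 4 ligands tested did not pass in this comparison. CD47 differed by 0.50 (95% interval -0.18 to 1.18, adjusted p = 0.169), NECTIN2 by 0.23 (-0.02 to 0.48, adjusted p = 0.0996), CD70 by -0.11 (-0.72 to 0.49) and PVR by 0.04 (-0.36 to 0.43), and the sign for PVR turned with upper-quartile scaling. Without ACHN library 2, the library in which CD47 was at 5.59 FPKM against 10.8 and 12.2 FPKM in the others, CD47 was 0.85 higher in ACHN cells with an adjusted p of 0.00171. LGALS9 and VTCN1 were below the filter in both lines.

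In 769-P cells CD70 RNA was higher after knockdown of NUF2, PVR and CD276 RNA were higher in the fit with the replicate block, and NECTIN2 and CD47 overlapped with their controls. Of the 5 ligands that passed the filter, 1 was called higher and 0 lower, against 5.33% of 14157 genes called higher, 4.55% lower and 9.88% in all. With the replicate block, 3 of the 5 were called higher and 0 lower, against 14% of all genes higher, 13.7% lower and 27.6% in all. CD70, PVR and CD276 had groups that did not overlap, with every siRNA-NUF2 library above every control library, as was seen for 16.9% of all genes tested, with 16.1% lower without overlap. These 3 were higher in all 3 same-numbered pairs, against 31.5% of genes, a share taken on scaled values. On scaled values NECTIN2 was also higher in all 3, in pair 2 only by 0.148 against 0.145 (log2 deviation from its line mean). CD47 was lower in all 3, against 31.6% of genes. The median over the 5 ligands was 0.26 on the log2 scale and -0.0054 over all genes tested.

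CD70 (ENSG00000125726, chromosome 19, 6583183 to 6604103, reverse strand) was 82.5, 66.4 and 78.4 FPKM with siRNA-NUF2 and 52.3, 44.9 and 45.8 FPKM with siRNA-control in 769-P cells. The lowest knockdown library was above the highest control library, and the fitted fold change was 1.60. The log2 difference was 0.68 (SE 0.106, 95% interval 0.43 to 0.93, adjusted p = 0.0144 by limma, and 0.00521 with the block). It fell short of the threshold, with adjusted p = 0.0589, 0.0549 and 0.0554, without siRNA-NUF2 library 3, control library 2 or control library 3, and in the fit of all 12 libraries (adjusted p = 0.154), while the difference stayed between 0.61 and 0.77 with any 1 library left out.

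PVR (CD155, chromosome 19, 44643798 to 44663583, forward strand), the poliovirus receptor, was 45.7, 41.5 and 42.1 FPKM with siRNA-NUF2 against 37.0, 32.8 and 28.3 FPKM with siRNA-control in 769-P cells. All 3 same-numbered pairs were higher with siRNA-NUF2, at 123%, 126% and 149% of the control. The log2 difference of 0.42 (SE 0.110, adjusted p = 0.0582) did not pass without the block and passed with it (SE 0.0667, adjusted p = 0.0141), and it passed without control library 1 (adjusted p = 0.0297). CD276 was 41.0, 39.0 and 39.2 FPKM against 35.8, 35.1 and 29.7 FPKM, a log2 difference of 0.26 with an adjusted p of 0.116 without and 0.0376 with the block. With the block and without the pair of libraries numbered 1, 2 or 3, the ligands called in 769-P cells were 2, 1 and 3.

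NECTIN2 was 30.0, 33.9 and 29.5 FPKM with siRNA-NUF2 against 28.5, 34.0 and 28.5 FPKM, and the interval of its log2 difference was -0.17 to 0.28, and -0.05 to 0.16 with the block. CD47, the ligand of the macrophage receptor SIRPA, was 5.80, 5.93 and 5.92 FPKM against 5.89, 6.06 and 6.89 FPKM, with an interval of -0.27 to 0.12. For these 2 genes, both intervals exclude a change of the size of CD70.

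The other 5 ligands were under the filter in 769-P cells. CD274 was 0.458, 0.508 and 0.411 FPKM with siRNA-NUF2 and 0.388, 0.410 and 0.504 FPKM with siRNA-control, which is 52 to 60 against 47 to 67 reads, and the groups overlapped in full. Fitted without a filter, its log2 difference was 0.08 (95% interval -0.44 to 0.60). LGALS9 was 0.178, 0.444 and 0.273 FPKM against 0.107, 0.300 and 0.184 FPKM, so each siRNA-NUF2 library was above the control of its number, at 167%, 148% and 149%, on 32, 73 and 48 reads against 18, 55 and 34 reads. The groups overlapped, and the interval of its difference without a filter was -0.48 to 1.35. The near-identical copies LGALS9B and LGALS9C were at most 0.0130 FPKM, which does not show how reads shared between the copies were counted. PDCD1LG2, TNFRSF14 and VTCN1 had at most 5 reads in any library of 769-P, and a change in them was not detectable at this depth.

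**Figure D1:**
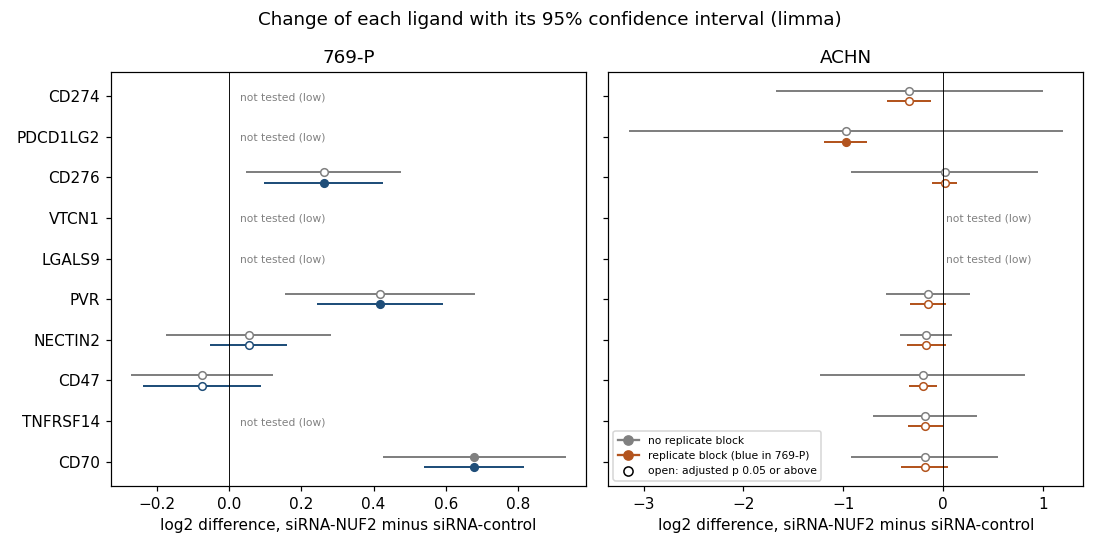
Log2 difference of each ligand, siRNA-NUF2 minus siRNA-control, with its 95% confidence interval by limma in 769-P (left) and ACHN cells (right, on a wider axis), without (grey) and with (color) the replicate block; filled points have an adjusted p under 0.05. CD70 at 0.68 is filled in both fits in 769-P cells, and PDCD1LG2 at -0.97 is filled in ACHN cells in the fit with the block.

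In ACHN cells PDCD1LG2 RNA was at about the halfway mark of its control in each same-numbered pair, and the other ligands tested did not pass. Without the block, limma called 0 of 15115 genes in ACHN cells (0%), while 1231 genes had an unadjusted p under 0.05 and limma-voom also called 0. With the block 1 of the 8 ligands tested was called, PDCD1LG2, against 5.07% of all genes lower, 6.63% higher and 11.7% in all. No ligand had groups that did not overlap, against 6.12% of genes lower and 8.34% higher without overlap. In all 3 same-numbered pairs 5 of the 8, CD274, PDCD1LG2, NECTIN2, CD47 and TNFRSF14, were lower, against 26.7% of all genes lower and 28% higher. The median over the 8 was -0.18 on the log2 scale against -0.0022 over all genes.

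PDCD1LG2 was 2.08, 0.708 and 5.02 FPKM with siRNA-NUF2 and 4.67, 1.40 and 9.60 FPKM with siRNA-control, libraries 1 to 3 in ACHN cells. The groups overlapped, and each siRNA-NUF2 library was below the control of the same number, at 44.5%, 50.4% and 52.3% of it. The numbers of reads were 180, 58 and 407 against 347, 128 and 799. The log2 difference of -0.97 ran from -1.70 without control library 2 to -0.28 without siRNA-NUF2 library 2 when the block was not fitted, and was also -1.62 and -0.36 without siRNA-NUF2 library 3 and control library 3. It had an SE of 0.0796 with the block (adjusted p = 0.012) and of 0.891 without it (adjusted p = 0.91). With the block, leaving out pair 1 or 2 kept the call (adjusted p = 0.0285 and 0.032), and leaving out pair 3 did not (adjusted p = 0.0743), where 0 genes in all were called.

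Its neighbour CD274 was 2.07, 0.851 and 2.71 FPKM against 2.80, 1.11 and 3.31 FPKM, or 73.9%, 77.0% and 81.8% of the same-numbered control, a log2 difference of -0.34 that did not pass (adjusted p = 0.984 without and 0.0609 with the block, where its interval was -0.55 to -0.13). CD47 was 9.41, 4.65 and 10.8 FPKM against 10.8, 5.59 and 12.2 FPKM, a difference of -0.20 (adjusted p = 0.0654 with the block). TNFRSF14 was 3.82, 2.67 and 4.01 FPKM against 4.11, 3.22 and 4.60 FPKM, a difference of -0.18 (adjusted p = 0.139 with the block). All of these groups overlapped between the siRNAs.

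CD276 in ACHN cells was 27.1, 12.7 and 16.6 FPKM against 27.4, 12.4 and 16.5 FPKM. Its libraries differed by number and hardly by siRNA, and the interval of its log2 difference with the block was -0.10 to 0.13. CD70 was 48.3, 31.3 and 39.7 FPKM against 63.5, 30.4 and 46.4 FPKM, a difference of -0.18 (interval with the block -0.41 to 0.04). PVR was 34.9, 29.3 and 27.5 FPKM against 41.7, 29.1 and 32.2 FPKM, and NECTIN2 29.2, 33.1 and 33.7 FPKM against 37.1, 33.3 and 37.8 FPKM. Their differences were -0.15 and -0.17, and neither passed in either fit. LGALS9 had at most 32 and VTCN1 at most 3 reads in any ACHN library and were not tested. LGALS9 was below its control in all 3 same-numbered ACHN pairs, on 0, 4 and 19 reads against 4, 10 and 32, and above it in all 3 of 769-P.

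Whether a ligand responded differently in the 2 lines was tested by an interaction term in a fit of all 12 libraries, as the change in ACHN minus the change in 769-P cells. Without the block limma called 0 of 16574 genes (0%), with 778 at an unadjusted p under 0.05, and limma-voom called 0 as well. With the block within each line, 1 of the 8 ligands tested was called, CD70, against 0.845% of all genes in the same direction, 0.573% in the other and 1.42% in all. The difference for CD70 was -0.85 (SE 0.116, adjusted p = 0.0361 with the block, SE 0.335 and adjusted p = 1.00 without). It was -0.56 for PVR (adjusted p = 0.057 with the block), -0.85 for PDCD1LG2 (adjusted p = 0.102) and -0.24 for CD276 (adjusted p = 0.157). The PDCD1LG2 value sets a change in ACHN cells against a gene at the floor in 769-P cells. For CD274, CD47, NECTIN2 and TNFRSF14 the adjusted p with the block was 0.261, 0.434, 0.244 and 0.397.

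**Figure D2:**
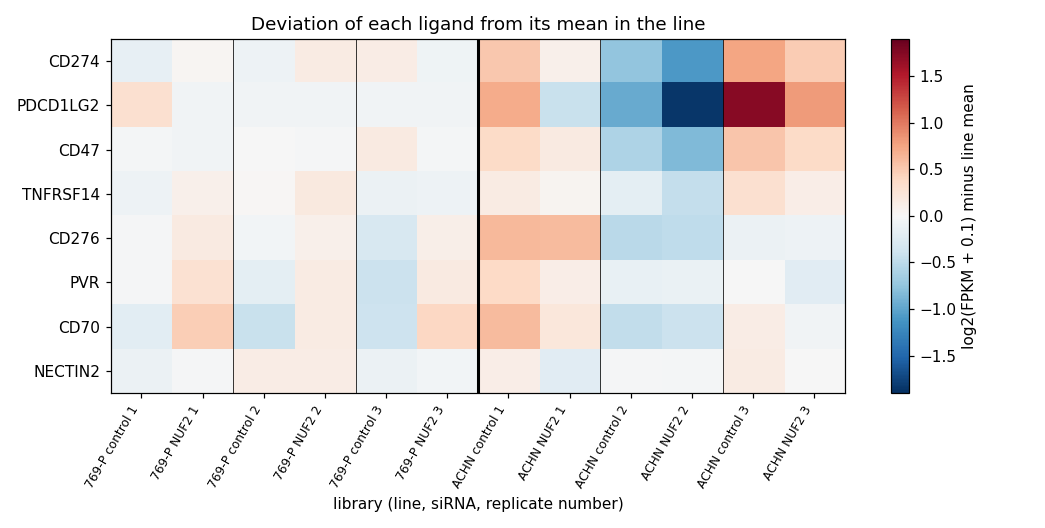
Deviation of each tested ligand from its own mean in the line, on the log2(FPKM + 0.1) scale, with libraries ordered by line, replicate number and siRNA. In ACHN cells the columns numbered 2 are low for CD274, PDCD1LG2, CD47, TNFRSF14, CD276 and CD70 with either siRNA, and in 769-P cells CD70 is higher in each siRNA-NUF2 column than in the control column of its number.

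Across the libraries, after the mean of each line was taken out, the gene of highest Pearson r with CD274 among 16574 was another ligand, CD47 (r = 0.983, Spearman rho = 0.888, 12 libraries). Within ACHN cells r was 0.997 and within 769-P cells 0.492, over 6 libraries each, so the likeness was closer among the ACHN libraries. The closest to PDCD1LG2 was TLR2, a receptor of bacterial lipoproteins (r = 0.979), and the closest to TNFRSF14 was AC008906.1 (r = 0.954), with CD274 the third (r = 0.916). PDCD1LG2 had at most 2 and TNFRSF14 at most 5 reads in any 769-P library, so their r values rest mainly on the ACHN libraries. CD276 was closest to CAPN1 (r = 0.992, 0.963 within 769-P and 0.997 within ACHN cells), PVR to PLCG1 (r = 0.972), CD70 to SYDE1 (r = 0.959), CD47 to C1orf186 (r = 0.986), with the interferon receptor subunit IFNAR2 next (r = 0.986), and NECTIN2 to NPM2 (r = 0.895). These are descriptions over libraries that share siRNA and replicate number. Without the 2 libraries farthest from the median of CD274, its r with CD47 was 0.937, and 0.939 with PPP4R1L. PPP4R1L came after CD47 by r over 12 libraries (0.971) and was above it by Spearman rho (0.944) and within 769-P cells (r = 0.773).

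Most receptors of the ligands were near 0 in both lines. Of 13 receptors and other binding proteins listed, 2 in 769-P (SIRPA and THBS1) and 4 in ACHN cells passed the filter. PDCD1, TIGIT, CD226, BTLA and TREML2 were at most 0.0188 FPKM in any library. SIRPA, the receptor of CD47, was at 45.9 to 54.6 FPKM in 769-P and 64.1 to 94.3 FPKM in ACHN cells. THBS1, thrombospondin 1, a further CD47-binding protein, rose in 769-P cells (log2 difference 1.66, SE 0.183, adjusted p = 0.00589) and, with the block, in ACHN cells (0.53, adjusted p = 0.016). CD27, the receptor of CD70, was at most 0.175 FPKM in 769-P and 0.435 to 0.700 FPKM in ACHN cells, where its difference was -0.28 (adjusted p = 0.884). With the block SIRPA rose too in 769-P cells (0.17, adjusted p = 0.0354).

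Other ligands of tumor cells moved in both directions. The counts for this and the next lists stand beside 9.88% of all genes called in 769-P cells and 27.6% with the block, and 0% and 11.7% in ACHN cells. Of 31 listed, 18 passed the filter in 769-P cells, of which 2 rose, TNFSF9 (4-1BB ligand, 0.49, adjusted p = 0.0126) and BTN3A3 (a butyrophilin, 0.43, adjusted p = 0.0406), and with the block 4 rose and 5 fell, among the latter ICAM1 (-0.61, adjusted p = 0.00751) and CD58 (-0.44, adjusted p = 0.015), both adhesion ligands of lymphocytes. In ACHN cells 19 passed the filter, and with the block 0 rose and 3 fell, BTN3A1 (-0.55, adjusted p = 0.0176), LGALS1 (-0.33, adjusted p = 0.0337) and LGALS3 (-0.24, adjusted p = 0.0357). Of 8 stress ligands of the NK receptor NKG2D, ULBP3 fell in 769-P cells (-0.72, adjusted p = 0.0429), 1 of 3 tested, and 0 of 5 were called in ACHN cells in either fit. Between the lines 8 of 20 other ligands tested were higher and 3 lower in ACHN cells, against 29.8% and 31.7% of all genes, so the count says nothing particular of these ligands. CD40 was 13.6 to 72.1 FPKM in ACHN and at most 0.0247 FPKM in 769-P cells, and HHLA2 1.78 to 4.95 FPKM in 769-P and at most 0.0235 FPKM in ACHN cells, so each passed the filter through 1 line and had to differ. VSIR was 0.265 to 0.786 FPKM in 769-P and 4.54 to 8.38 FPKM in ACHN cells.

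Factors that set the PD-L1 level, such as JAK1, CMTM4 and CMTM6, were expressed in both lines, with 32 of 33 passing the filter in each. In 769-P cells JAK1 (0.32, adjusted p = 0.0428) and SPOP (0.32, adjusted p = 0.0461), an adaptor for the breakdown of PD-L1 protein, rose, and CMTM4, which holds PD-L1 at the surface, fell (-0.56, adjusted p = 0.00709). With the block 6 rose and 4 fell, 10 of 32, against 27.6% of all genes in that fit. In ACHN cells with the block 2 rose, B4GALT1 (0.82) and USP22 (0.23), and 4 fell, among them CMTM4 (-0.41, adjusted p = 0.03). Between the lines 11 of 32 were higher and 2 lower in ACHN cells, against 29.8% and 31.7% of all genes.

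Interferon-stimulated genes rose in 769-P cells. CD274 and LGALS9, the ligands with ISRE-type words in their windows, were under the filter there, and their groups overlapped between the siRNAs. By same-numbered pairs LGALS9 was above its control in 3 of 3 and CD274 in 2 of 3. Of the genes that passed the filter, 31.5% were higher in all 3 pairs. Of 19 interferon-stimulated genes tested, 5 were called higher and 0 lower (GBP1, IFI44, TAP1, IFIT1 and DDX58). IFI44 was at 2.70 (SE 0.429, adjusted p = 0.0149) and TAP1, of the peptide transporter for MHC class I, at 0.79 (adjusted p = 0.0184). With the block 17 were called higher, and the median over the 19 was 1.12 against -0.0054 over all genes. In ACHN cells no gene of the 20 tested passed without the block, and in the fit with it IFIT3 (-0.52, adjusted p = 0.0184) and IFIT2 (-0.41, adjusted p = 0.0209) fell, with a median of -0.08. The interaction with the block was called for 12 of 22, against 1.42% of all genes. In all 12 the change in ACHN cells was below that in 769-P cells, against 0.845% of all genes called in that direction. The interferon list was chosen with earlier results of these data known, so its counts and medians describe the list and are no independent test. Under siRNA-control 8 of 18 were higher in ACHN cells, such as PSMB9 (2.64) and MX1 (2.71), and 1 was lower, against 29.8% and 31.7% of all genes. MX1 was above 0.5 FPKM in every ACHN library, while its median over the 6 libraries of 769-P cells was 0.299 FPKM. The call of MX1 is therefore tied to the filter.

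The lists that describe the cells moved beside these values as follows. In 769-P cells the immune markers summed to 0.691 to 0.773 FPKM with siRNA-NUF2 and 0.911 to 1.05 FPKM with siRNA-control, and 0 of 14 passed the filter. Of 11 renal markers tested, 0 rose and 1 fell, PAX8 (-0.44, adjusted p = 0.0354), and with the block 4 rose and 3 fell, and in ACHN cells with the block 2 rose, KRT18 (0.59) and KRT8 (0.61), and 1 fell. Of 8 proliferation genes 0 were called in either line without the block. With the block, BUB1 rose in both lines (0.20 and 0.46) and CCNA2 fell in 769-P cells (-0.24). COL1A1 was at 1.14 to 3.87 FPKM in ACHN and at most 0.140 FPKM in 769-P cells. In ACHN cells ITGAM, PDGFRB and COL1A1 passed the filter and none of the 3 was called between the siRNAs. PVRIG, a receptor of NECTIN2, was at 0.771 to 1.56 FPKM in 769-P cells and at most 0.145 FPKM in ACHN cells, and its change in 769-P cells did not pass (-0.48, adjusted p = 0.142). The part of any of these in the ligand results was not tested.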

How the data were processed

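The deposited values are FPKM, 1 value per gene and library, which the authors made from total RNA sequenced on an Illumina NovaSeq after fastp filtering. Per the labels, the submitters' processing notes name HISAT2 2.0.5, featureCounts 1.5.0-p3 and hg38, and the strand setting is not given in the sources used here. Whole reads were recovered from the FPKM for 98.37% of 36305 genes above 0. GENCODE 29 exon lengths were used, and for 873 genes a length found by a search for one that gave whole reads. Before that search, 95.73% of values under 2000 reads were within 0.02 of a whole number. The recovered reads served for depth, for read numbers and for an alternative fit with limma-voom.

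The planned test was for counts or FPKM, and since the files hold FPKM, limma 3.58.1 (lmFit, eBayes with trend, R 4.3.3) was fitted to log2(FPKM + 0.1), so that fold changes of low genes are understated. Libraries were scaled by a trimmed mean of log ratios (30% and 5% trimmed). Genes with at least 0.5 FPKM in at least 3 libraries were tested, p-values were adjusted by Benjamini-Hochberg over all of them, and the threshold was 0.05. The fits were first tested on simulated data. The simulated libraries had no shared deviation by replicate number, unlike the libraries here, so that test does not show how often a change would be called in these data. The members and lists were chosen with earlier results of these data known. The genes named are the ligands, NUF2 and up to 4 genes of each list with the lowest p in a comparison, besides DDX58 and the markers and receptors given as levels, which were named after their values were seen. Some genes of the lists are counted but not reported here by name. Likeness took the 3 genes of highest r.

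Replicate numbers come from the labels. Libraries that share a number within a line deviated together from the means of their groups, with r of 0.19 to 0.36 for 769-P and from 0.461 to 0.735 for ACHN, so the numbers pair the libraries within a line, and values with the replicate block are given where they change a call. No library was a copy of another of its group, with a chi-square per gene of at least 14.3. Other settings tried were scaling by upper quartile or by median ratio, values as deposited, pseudocounts of 1 and 0.01, no filter or 1 FPKM, the block, all 12 libraries in 1 fit and each library left out, and limma-voom and the block without each pair, both added after the data had been seen. SciPy 1.17.1 (exact tests), matplotlib 3.10.9 (figures), NumPy 2.4.6 and pandas 2.3.3 under Python 3.11.15 were used beside R.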

Additional observations from a re-analysis of the deposited data

Results flagged for a closer look

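A change with siRNA-NUF2 that differed between the 2 lines, by the interaction test with the replicate block, was found for CD70 among the ligands, at -0.85 (ACHN change minus 769-P change, log2 scale). Without the block the same test called 0 genes. CD70 was higher with siRNA-NUF2 in 3 of 3 same-numbered pairs in 769-P cells and in 1 of 3 in ACHN cells.

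Among the interferon-stimulated genes the same test was passed by IFI6 (-2.52), IFI27 (-2.08), IFI44 (-2.69), IFI44L (-2.65), IFIT1 (-2.82), IFIT2 (-1.34), ISG15 (-2.36), OAS1 (-1.88), OAS2 (-2.91), OAS3 (-1.38), TAP1 (-0.82) and HLA-C (-0.36). It was also passed by THBS1 (-1.13) and KRT8 (0.45). The flagging used no rule for single libraries that stand apart in a group of 3. The ACHN libraries numbered 2 are described with the results above.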

How the results depend on the processing

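In 769-P cells 1399 genes and 1 ligand were called. Without a filter 638 genes were called, with the replicate block 3912 genes and 3 ligands, with all 12 libraries in 1 fit 708 genes and 0 ligands, and with limma-voom 1877 genes and 2 ligands. With 1 library left out the range was 368 to 1130 genes and 0 to 2 ligands, and with the block without pair 1, 2 or 3 it was 2559, 1137 and 3081 genes and 2, 1 and 3 ligands. In ACHN cells 0 genes were called, 1769 genes and 1 ligand with the block, 166 genes with all 12 libraries in 1 fit, and with the block without pair 1, 2 or 3 595, 669 and 0 genes and 1, 1 and 0 ligands. With limma-voom, or with 1 library left out, 0 genes were called. Between the lines the ligands called ranged from 1 to 4 with 1 library left out, in part since PDCD1LG2 and TNFRSF14 drop under the filter of 3 libraries when an ACHN library is missing. For the difference of response, the block gave 235 genes and 1 ligand, no filter 15 genes, a pseudocount of 0.01 2 genes, and 1 library left out 0 to 1 genes. The cause of the other shifts was not tested.

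Of 529 single values under the alternatives, 490 kept their direction and their side of the threshold, 7 lost and 12 gained the call, and 20 turned sign, all of them for values that had not passed. With 1 library left out, the log2 difference in 769-P cells ran from -0.0068 to 0.14 for NECTIN2. In ACHN cells it ran from -0.28 to 0.33 for CD276, -0.80 to 0.13 for CD274, -0.55 to 0.17 for CD47, -0.32 to 0.0083 for TNFRSF14, -0.26 to 0.0042 for PVR and -0.46 to 0.074 for CD70. Between the lines it ran from -0.10 to 0.16 for PVR and -0.36 to 0.17 for CD70. For the difference of response it ran from -0.87 to 0.046 for CD274, -0.54 to 0.074 for CD276 and -0.46 to 0.25 for CD47.

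Between the lines the replicate numbers were only shared (correlations of -0.0565 to 0.043), and the replicate block called 9119 genes against 9448 and the same number of ligands, 4. Upper-quartile scaling moved the median of all genes from -0.02 to -0.17, with 3911 genes higher and 5738 lower in ACHN cells against 4577 and 4871, and put PVR at -0.10. Depth limits LGALS9, VTCN1 and, in 769-P cells, PDCD1LG2, TNFRSF14 and CD274.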
